A study of Arabidopsis thaliana with 16 samples.

Results

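SAUR genes (small auxin up RNA) were followed in whole Arabidopsis thaliana seedlings exposed to ethanol vapour. The 36 genes described here were chosen by locus code from a count table of 27416 genes. Of these, 32 lie in 6 tandem clusters and 4 lie elsewhere in the genome. No measured value enters that choice, but the set was proposed with results of these data known, so no p over the set is given. After a filter on low counts, 33 of the 36 genes were tested among 18419 genes.

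Seedlings of 4 groups were compared: EtOH_3d (ethanol gas for 3 d from an age of 11 d), moc_3d (its control), EtOH_1d (ethanol gas for 1 d from an age of 13 d) and moc_1d (its control). The labels do not spell out moc, and they give no genotype, ecotype or ethanol dose. All groups grew on agar at the same temperature and day length, and although the series title names freezing, no label of these samples records a cold step. Each group has 4 columns per the labels, but moc_1d replicate 1 and moc_3d replicate 3 hold identical counts and were left out of both groups, leaving 4 ethanol and 3 control libraries per duration. Libraries were made by Lasy-Seq, which reads the 3′ ends of transcripts.

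The 14 libraries held 3695511 to 15943927 counts, so that 3 counts correspond to 0.188 to 0.812 CPM (counts scaled to a common library total of 1000000). Leaf markers summed to 53100 to 58700 CPM per library, root markers to 96.9 to 121 CPM and flower markers to 1.77 to 5.12 CPM, with no marker gene at 0 in any group. Both leaf and root markers were thus detected in each library, as the label whole plant states. In whole seedlings, fewer cells of a type and less RNA per cell cannot be told apart. The labels do not say whether replicates came from different plates, so each p-value refers to variation among these libraries, part of which may be technical.

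SAUR genes form a large plant family named for the rapid rise of their transcripts after auxin treatment. Auxin binds TIR1/AFB receptors, Aux/IAA repressors are degraded, and ARF transcription factors then act on target genes that include many SAURs. SAUR proteins of the SAUR19 type inhibit PP2C.D phosphatases, which keeps plasma membrane proton pumps phosphorylated and active. The resulting acidification of the cell wall is linked to cell expansion in hypocotyls, stamens and leaves.

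In each of the 36 genes the shortest annotated coding sequence is a single uninterrupted part, between 261 and 453 nt long. The genes of the cluster on chromosome 5, SAUR19 to SAUR24, are the closest to each other, with 87.7% to 95.2% identical coding bases over 15 pairs. On chromosome 1, the 8 genes from AT1G29420 (SAUR61) to AT1G29510 share 56.9% to 89.0%, and on chromosome 3 SAUR26 to SAUR29 share 77.7% to 86.3%. The cluster on chromosome 2 (SAUR6, SAUR7, SAUR12) and both clusters on chromosome 4 are more diverse, with at most 67.8%. Across clusters, SAUR16 on chromosome 4 and SAUR12 on chromosome 2 are the closest pair, at 85.5%. AT1G29490 and AT1G29510 carry the same symbol in the reference annotation and are therefore called by locus code.

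**Figure D1:**
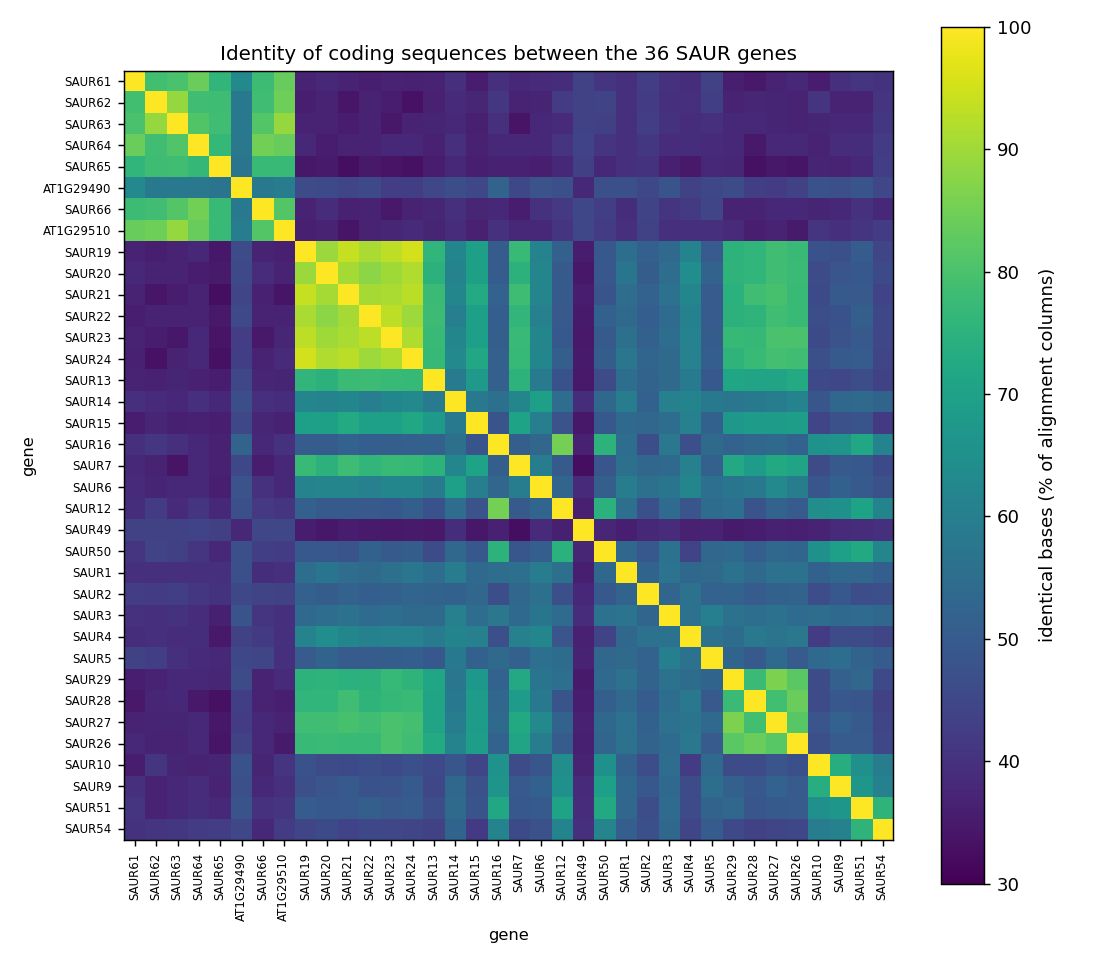
Identity of coding sequences, as the percentage of alignment columns with the same base, for each pair of the 36 SAUR genes; colour runs from 30% to 100%. The bright block of SAUR19 to SAUR24 spans 87.7% to 95.2%, and the block of AT1G29420 to AT1G29510 spans 56.9% to 89.0%.

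The SAUR19 to SAUR24 genes show how near-identical neighbours can limit such measurements. The lines below give the same 60 coding bases near the stop codon of each gene, 5′ to 3′, from the RefSeq TAIR10.1 genome, where capitals mark the 8 positions at which the genes differ. They lie at chr5:5963033-5963092 (SAUR19, minus strand), chr5:5966308-5966367 (SAUR20, minus), chr5:5968734-5968793 (SAUR21, plus), chr5:5974691-5974750 (SAUR22, minus), chr5:5976243-5976302 (SAUR23, plus) and chr5:5984053-5984112 (SAUR24, plus).
SAUR19: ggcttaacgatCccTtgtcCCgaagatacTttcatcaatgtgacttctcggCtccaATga
SAUR20: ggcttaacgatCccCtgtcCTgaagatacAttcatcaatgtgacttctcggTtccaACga
SAUR21: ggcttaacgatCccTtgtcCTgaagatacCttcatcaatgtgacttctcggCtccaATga
SAUR22: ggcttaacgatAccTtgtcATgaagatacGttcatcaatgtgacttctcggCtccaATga
SAUR23: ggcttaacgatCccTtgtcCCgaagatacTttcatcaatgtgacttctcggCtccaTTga
SAUR24: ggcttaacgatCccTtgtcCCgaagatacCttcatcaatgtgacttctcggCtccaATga
A short read inside such a stretch can match more than 1 gene. Over whole transcripts, 13 of the 36 genes share a run of at least 50 identical bases with another gene. The longest run, 194 nt, joins SAUR63 and AT1G29510, and SAUR62 shares 162 nt with SAUR75 (AT5G27780), a SAUR gene outside the 36 that reached at most 0.525 CPM in any library. SAUR19 shares 86 nt with SAUR21. The smallest share of words of 50 nt that occur in 1 gene alone was 72.9%, in SAUR63. This share covers whole transcripts and was not taken for the 3′ ends alone, where the reads lie. The last 500 nt of each transcript were searched for matches of at least 100 nt at 95% identity or more. Those found were SAUR62 with SAUR75 (317 nt, 97.8%) and SAUR6 with SAUR7 (176 nt, 100%). No pair within SAUR19 to SAUR24 met these limits, which leave out shorter runs. The sources used here do not give how reads with several matches were counted. Values of SAUR62, SAUR63, SAUR66, AT1G29490 and AT1G29510 on chromosome 1 and of SAUR19 to SAUR24 on chromosome 5 carry that uncertainty. So do those of SAUR6 and SAUR7 on chromosome 2, which share 176 nt. For SAUR66 and AT1G29490 the shared run is 53 nt, and 99.6% and 99.4% of their words occur in 1 gene alone. SAUR61, SAUR64 and SAUR65 of the chromosome 1 cluster share no run of 50 nt with another gene.

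Transcripts of the SAUR genes were low to moderate. Among the 33 tested genes the mean over 14 libraries ran from 1.23 CPM (SAUR54) to 76.4 CPM (SAUR6), with a median of 8.2 CPM. Means were under 5 CPM in 9 genes, between 5 and 20 CPM in 15 and at 20 CPM or more in 9. CPM are not divided by transcript length, and no order of abundance between genes is read from them. The 3 genes that failed the filter were SAUR12, with at most 13 counts in a library, SAUR10, known in Arabidopsis for effects on stem and branch growth, with at most 5, and SAUR2, with at most 2.

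After 3 d of ethanol, 0 of the 33 tested SAUR genes passed an adjusted p of 0.05, against 0.554% of all genes tested (edgeR's quasi-likelihood test, Benjamini-Hochberg adjustment). DESeq2 and limma-voom each called 0 as well, DESeq2 giving no adjusted p for 21 of the 33. At an unadjusted p under 0.05 there were 2 SAUR genes (6.06%), SAUR20 and SAUR50, against 8.82% of all genes. The fold changes leaned slightly upward: 24 of 33 genes (72.7%) had a log2 fold change above 0, against 49.8% of all genes tested. Their median log2 fold change was 0.07, beside 0.00 for all genes, and single genes lay between -0.53 (SAUR5) and 0.96 (AT1G29490). The median was 0.19 without moc_3d replicate 4.

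SAUR20 (AT5G18020), of the group that promotes hypocotyl cell expansion, had 16.7, 20.7, 21.4 and 22.9 CPM in EtOH_3d and 14.8, 15.4 and 14.0 CPM in moc_3d. Each EtOH_3d library was above each moc_3d library. The log2 fold change was 0.48 ± 0.139 (SE), with an adjusted p of 0.125 by edgeR. At 1 d it measured 22.6 ± 2.78 CPM in EtOH_1d (SD, n = 4) and 20.6 ± 1.14 CPM in moc_1d (SD, n = 3), so that the 3 moc_3d libraries stood below the 11 others used. The library left out of both control groups held 122 counts of SAUR20, or 19.6 CPM without TMM scaling. That value lies inside the EtOH_3d range and inside the moc_1d range (19.4 to 21.5 CPM). As a moc_3d library it would end the separation, and as a moc_1d library it would not touch it. Which label is right is not known, so the separation is stated only for the libraries used. Without EtOH_3d replicate 1, the lowest of its group, the 3 d comparison gave 0.56 with an edgeR adjusted p of 0.0476.

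SAUR50 (AT4G34760), known with SAUR16 as a light-induced gene of opening cotyledons, had 28.5, 38.1, 36.2 and 31.5 CPM in EtOH_3d and 21.8, 27.4 and 27.8 CPM in moc_3d. These groups did not overlap, but the gap between 28.5 and 27.8 CPM was narrow. The library left out of both control groups had 31.6 CPM without TMM scaling. The log2 fold change of SAUR50 was 0.37 ± 0.12 (SE), with an edgeR adjusted p of 0.205. SAUR19 was the other gene without overlap, at 9.14 to 10.6 CPM in EtOH_3d and 8.3 to 8.6 CPM in moc_3d, with a log2 fold change of 0.22. In all, 3 of 33 genes (9.09%) lay wholly above the controls and 0 wholly below, against 4.16% and 3.58% of all genes tested.

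Apart from SAUR20, the 3 highest and 3 lowest genes at 3 d had mean CPM below the median of the tested SAUR genes (8.2 CPM). AT1G29490 had 0.63 to 2.79 CPM in EtOH_3d and 0.366 to 1.25 CPM in moc_3d, and its 95% interval ran from -0.12 to 2.05 on the log2 scale. SAUR3 had a log2 fold change of 0.38 and SAUR20 stood between them. The lowest were SAUR5 at -0.53, SAUR23 at -0.48 and SAUR7 at -0.38, each with an interval that includes 0. SAUR14 (AT4G38840), which took the most counts of its cluster, had 67.4 ± 9.24 CPM in EtOH_3d (SD, n = 4) and 67.2 ± 16.6 CPM in moc_3d (SD, n = 3). Its log2 fold change was 0.00, with an interval from -0.40 to 0.40, so a modest change in either direction was within the error.

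After 1 d of ethanol, 0 of the 33 tested SAUR genes passed, and the share called among all genes was 0.0% (0 of 18419 by edgeR). DESeq2, which gave no adjusted p for 21 of the 33, called 2 SAUR genes, SAUR66 and SAUR6, and limma-voom 0. At an unadjusted p under 0.05, 5 SAUR genes (15.2%) stood beside 4.32% of all genes. These 5 were SAUR66, SAUR19, SAUR63 and SAUR27, all higher in EtOH_1d, and SAUR6, lower in EtOH_1d. Among the 33 genes, 20 (60.6%) had a log2 fold change above 0, against 51.0% of all genes, with a median of 0.08 and a range from -0.62 (SAUR54) to 0.71 (AT1G29490).

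SAUR66 (AT1G29500), in the cluster of SAUR63, a gene that promotes hypocotyl and stamen filament elongation, had 27.9, 34.5, 32.6 and 36.5 CPM in EtOH_1d and 18.9, 24.8 and 23.3 CPM in moc_1d. All EtOH_1d libraries were above all moc_1d libraries. The log2 fold change was 0.55 ± 0.114 (SE), a 1.47-fold difference, with an unadjusted p of 1.04e-05 and an adjusted p of 0.0908 by edgeR. DESeq2 gave an adjusted p of 0.0356 for SAUR66. At 3 d the gene had 34.8 ± 4.14 CPM in EtOH_3d (SD, n = 4) and 32.2 ± 2.23 CPM in moc_3d (SD, n = 3). Its response at 3 d minus that at 1 d was -0.44 ± 0.163 (SE), with an edgeR adjusted p of 0.709.

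SAUR6 (AT2G21210) had 108, 87.2, 68.4 and 78.8 CPM in EtOH_1d and 125, 119 and 119 CPM in moc_1d. The groups did not overlap, and the EtOH_1d libraries were spread more widely than the controls. The log2 fold change was -0.49 ± 0.136 (SE), with an adjusted p of 0.775 by edgeR and 0.0451 by DESeq2. After 3 d the difference was -0.10, with 50.5 ± 7.29 CPM in EtOH_3d (SD, n = 4) and 54.2 ± 6.54 CPM in moc_3d (SD, n = 3).

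Taking the groups without overlap at 1 d, 4 of 33 genes (12.1%) lay wholly above moc_1d, against 3.26% of all genes, and 1 (3.03%) wholly below, against 2.87%. The 4 were SAUR66, SAUR63, AT1G29510 and SAUR27, so that 3 of them belong to the chromosome 1 cluster. Because SAUR63 and AT1G29510 share 194 identical bases, their values may not be independent of each other. SAUR27, of the SAUR26 group whose variation is linked to growth at warm temperature in Arabidopsis, had 5.97 to 7.83 CPM in EtOH_1d and 3.59 to 5.77 CPM in moc_1d, with a log2 fold change of 0.47 and an edgeR adjusted p of 1.0. SAUR54 and SAUR26 were among the lowest, at -0.62 and -0.24, and SAUR5 among the highest at 0.52, each with overlapping groups. SAUR21, with the most counts of the chromosome 5 cluster, had 22.6 ± 3.82 CPM in EtOH_1d (SD, n = 4) and 23.6 ± 1.37 CPM in moc_1d (SD, n = 3).

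**Figure D2:**
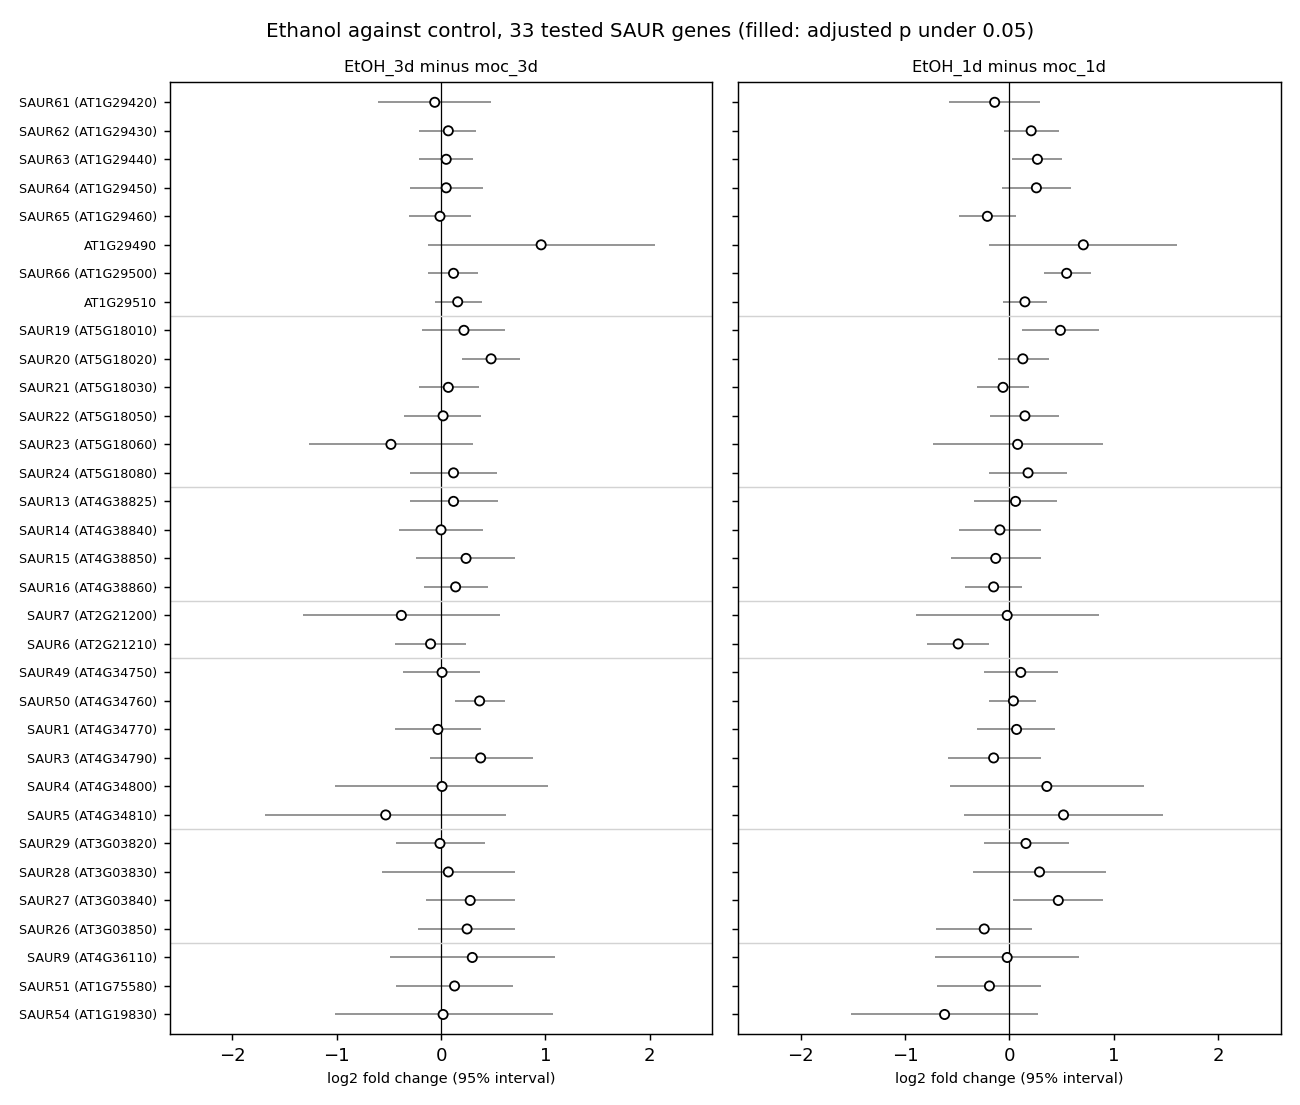
Log2 fold change of ethanol over control with 95% interval (horizontal axis) for each of the 33 tested SAUR genes, ordered by cluster, after 3 d (left) and 1 d (right). No point is filled, since 0 genes passed an adjusted p of 0.05; SAUR20 lies at 0.48 after 3 d and SAUR66 at 0.55 after 1 d.

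The response to ethanol was then compared between durations. In the test of the response at 3 d minus the response at 1 d, 0 of 33 SAUR genes passed, against 0.0434% of all genes, and DESeq2 (20 of the 33 without an adjusted p) and limma-voom called 0 each. An unadjusted p under 0.05 was found for 2 genes (6.06%), SAUR66 and SAUR50, against 5.56% of all genes. The median difference was 0.02, with 17 of 33 genes (51.5%) above 0, against 49.3% of all genes. SAUR50 differed by 0.34 ± 0.165 (SE), with an edgeR adjusted p of 0.888. The extremes were SAUR5 at -1.05, SAUR23 at -0.56 and SAUR66 at -0.44, and SAUR54 at 0.64, SAUR3 at 0.53 and SAUR26 at 0.48, with no call among them by edgeR.

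The durations were also compared within each arm. Seedlings of the durations were placed in their treatment at different ages (11 d and 13 d), and the duration and that age cannot be told apart. These comparisons share libraries with the ethanol comparisons, so values are given side by side. Among ethanol-exposed seedlings, 3 of 33 SAUR genes passed (9.09%), 2 higher (SAUR26, SAUR50) and 1 lower (SAUR6) in EtOH_3d than in EtOH_1d, where 1.0% of all genes passed (0.635% higher, 0.369% lower). Among control seedlings, 3 passed as well, 1 higher (SAUR66) and 2 lower (SAUR6, SAUR16) in moc_3d than in moc_1d, where 0.842% of all genes passed (0.527% higher, 0.315% lower). At an unadjusted p under 0.05 there were 8 SAUR genes (24.2%) in the ethanol arm, against 10.2% of all genes, and 10 (30.3%) in the control arm, against 9.34%. Fold changes above 0 were found for 19 of 33 genes (57.6%) and 20 of 33 (60.6%), against 49.8% and 49.6% of all genes. The median log2 fold change of the 33 genes was 0.10 in the ethanol groups and 0.09 in the control groups. With the library deposited under both control labels kept as moc_1d replicate 1, or under both labels, 0 SAUR genes passed in either arm. With it kept as moc_3d replicate 3, all 6 calls held (edgeR adjusted p of 0.00027 to 0.0401).

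SAUR6 was lower at 3 d in both arms. It had 60.8, 46.5, 44.4 and 50.3 CPM in EtOH_3d and, as given above, 68.4 to 108 CPM in EtOH_1d. In the controls it had 53.6, 48.0 and 61.1 CPM in moc_3d and 119 to 125 CPM in moc_1d. In neither arm did the durations overlap. The log2 fold change was -0.77 ± 0.14 (SE) with an adjusted p of 0.0188 in the ethanol arm, and -1.16 ± 0.155 (SE) with an adjusted p of 0.00223 in the control arm, both by edgeR. The call in the ethanol arm was lost when any 1 of 4 libraries was left out, with the highest edgeR adjusted p (0.0787) without EtOH_3d replicate 3. The library deposited under both control labels held 325 counts of SAUR6, or 52.3 CPM without TMM scaling. Kept as moc_1d replicate 1, it brought the control arm to -0.95 with an edgeR adjusted p of 0.335, and kept as moc_3d replicate 3 to -1.17 with 0.00027.

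The locus of SAUR6 (chr2:9084628-9086029, minus strand, TAIR10.1) overlaps that of its neighbour SAUR7 (chr2:9083906-9084803) by 176 nt on the same strand, at the 3′ end of SAUR6, where a 3′ method places its reads. SAUR7 itself had 0.833 to 2.79 CPM in the 14 libraries. Summed over SAUR6, SAUR7 and SAUR12, the cluster had 52.5 ± 7.37 CPM in EtOH_3d (SD, n = 4) and 88.0 ± 17.1 CPM in EtOH_1d (SD, n = 4). The same sum was 56.6 ± 6.21 CPM in moc_3d and 123 ± 3.66 CPM in moc_1d (SD, n = 3 each).

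SAUR16 (AT4G38860) had 34.4, 29.9 and 42.9 CPM in moc_3d and 55.1, 63.4 and 53.9 CPM in moc_1d. The control groups did not overlap. Without TMM scaling, the library left out of both had 33.2 CPM, inside the moc_3d range. The log2 fold change was -0.68 ± 0.145 (SE), with an edgeR adjusted p of 0.0272. The ethanol groups had 39.8, 37.3, 47.6 and 32.6 CPM in EtOH_3d and 61.6, 49.6, 42.5 and 52.0 CPM in EtOH_1d, which overlapped, at -0.39 with an adjusted p of 0.218. The call in the controls was lost when any 1 of 9 of the 14 libraries was left out, moc_3d replicate 1 giving the highest adjusted p (0.189).

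SAUR66 moved the other way in the controls. It had 30.6, 34.7 and 31.3 CPM in moc_3d, all above the 18.9 to 24.8 CPM of moc_1d. Between these groups lay the library left out of both, at 26.7 CPM without TMM scaling. The log2 fold change was 0.54 ± 0.124 (SE), with an edgeR adjusted p of 0.0143. In the ethanol arm it was 0.10, with 34.8 CPM in EtOH_3d and 32.9 CPM in EtOH_1d. The moc_1d libraries were therefore the low group in both the ethanol comparison at 1 d and the duration comparison of the controls. Without moc_1d replicate 2, the lowest library, the duration difference of the controls was 0.42 with an adjusted p of 0.243, and without moc_3d replicate 2 it was 0.48 with 0.105.

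SAUR50 rose in the ethanol arm, where the 28.5 to 38.1 CPM of EtOH_3d lay above the 23.3, 25.9, 25.5 and 26.4 CPM of EtOH_1d. Its log2 fold change was 0.41 ± 0.108 (SE), with an edgeR adjusted p of 0.0386. In the controls it was 0.08, with 25.7 ± 3.38 CPM in moc_3d and 24.3 ± 2.5 CPM in moc_1d (SD, n = 3 each). Among the libraries used, EtOH_3d was thus the 1 group of 4 that stood apart. The library left out of both control groups had 31.6 CPM of SAUR50 without TMM scaling, inside the EtOH_3d range. The call was lost when any 1 of 7 libraries was left out, with the highest adjusted p (0.17) without EtOH_1d replicate 1.

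SAUR26 (AT3G03850) had 8.93, 11.3, 6.3 and 7.62 CPM in EtOH_3d and 5.46, 2.53, 4.4 and 5.44 CPM in EtOH_1d. No library of EtOH_3d fell into the range of EtOH_1d. Its log2 fold change was 0.84 ± 0.218 (SE), with an edgeR adjusted p of 0.037. In the controls it had 6.96 ± 1.29 CPM in moc_3d and 5.43 ± 1.1 CPM in moc_1d (SD, n = 3 each), a log2 fold change of 0.35. Without TMM scaling, the library left out of both control groups had 10.1 CPM of SAUR26. That is above all control libraries used (at most 7.89 CPM) and inside the EtOH_3d range. The call was lost when any 1 of 5 libraries was left out, with the highest adjusted p (0.164) without EtOH_3d replicate 2, and limma-voom gave 0.068. DESeq2 gave no adjusted p for this comparison of SAUR26.

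**Figure D3:**
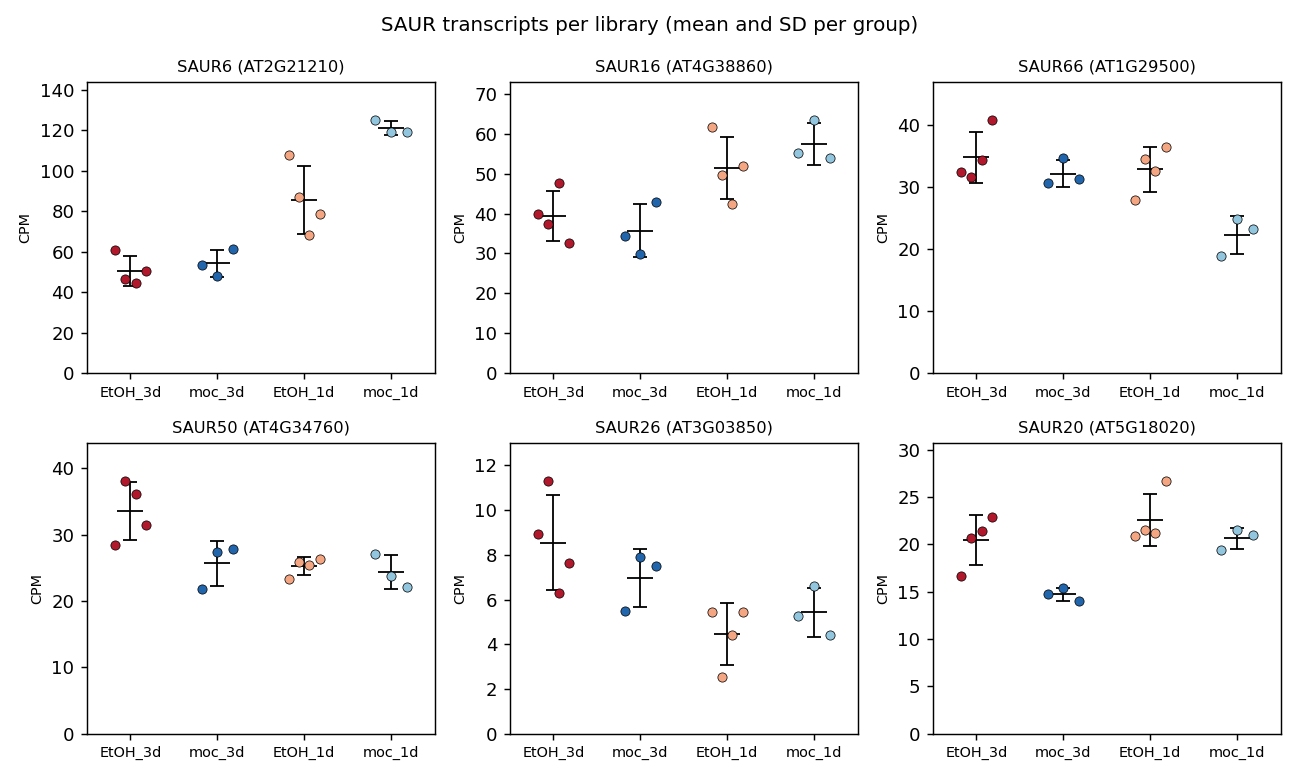
CPM per library (points) with mean and SD (bars) for 6 SAUR genes in EtOH_3d, moc_3d, EtOH_1d and moc_1d; all axes start at 0. SAUR6 averaged 50.5, 54.2, 85.6 and 121 CPM in these groups, and SAUR20 was lowest in the moc_3d libraries used, at 14.0 to 15.4 CPM. The library left out of both control groups is not shown and had 19.6 CPM of SAUR20 without TMM scaling.

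The SAUR26 to SAUR29 cluster was the one in which all tested members had positive fold changes in both arms, from 0.17 (SAUR29) to 0.84 (SAUR26) in the ethanol arm and from 0.34 (SAUR29) to 0.73 (SAUR28) in the control arm. One of these 8 differences passed, that of SAUR26 in the ethanol arm. SAUR27 had 8.35 to 11.9 CPM in EtOH_3d and 5.97 to 7.83 CPM in EtOH_1d, with a log2 fold change of 0.48. Its control libraries had 5.85 to 8.93 CPM in moc_3d and 3.59 to 5.77 CPM in moc_1d, with 0.66 and an edgeR adjusted p of 0.229. SAUR28 gave 0.51 and 0.73 and SAUR29, with the most counts of the cluster, 0.17 and 0.34. Summed over the cluster, the ethanol groups had 32.6 ± 3.91 CPM in EtOH_3d and 23.0 ± 3.58 CPM in EtOH_1d (SD, n = 4 each). The control groups had 28.9 ± 2.73 CPM in moc_3d and 20.5 ± 2.72 CPM in moc_1d (SD, n = 3 each). No test of these sums was made.

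Members of 1 cluster did not all move together. On chromosome 5, SAUR20 and SAUR21 had log2 fold changes of -0.48 and -0.40 in moc_3d against moc_1d, each without overlap, while SAUR23 had 1.07, and none of these passed (edgeR adjusted p of 0.0924, 0.254 and 0.342). SAUR23 is a gene of few counts, with 2.08 to 3.88 CPM in moc_3d and 0.825 to 2.13 CPM in moc_1d. On chromosome 1, SAUR61 had -0.58 in the controls and -0.50 in the ethanol arm, opposite in sign to SAUR66, and neither passed. On chromosome 4, SAUR16 was lower in moc_3d while SAUR14 had 51.2 to 84.3 CPM in moc_3d and 53.9 to 68.4 CPM in moc_1d. SAUR5, the lowest in the ethanol arm at -0.82, had at most 2.15 CPM in a library. SAUR51, with the most counts of the 4 genes outside the clusters, gave 0.06 in the ethanol arm and -0.26 in the controls, both with intervals that include 0.

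Without overlap, 4 of 33 genes were higher and 1 lower in EtOH_3d than in EtOH_1d, where 2.96% and 2.94% of all genes were. In the controls 5 genes were higher and 5 lower in moc_3d than in moc_1d, against 8.03% and 7.66% of all genes. All 36 genes together summed to 511 ± 21.4 CPM in EtOH_3d (SD, n = 4), 477 ± 40.7 CPM in moc_3d (SD, n = 3), 525 ± 32.2 CPM in EtOH_1d (SD, n = 4) and 537 ± 12.0 CPM in moc_1d (SD, n = 3).

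**Figure D4:**
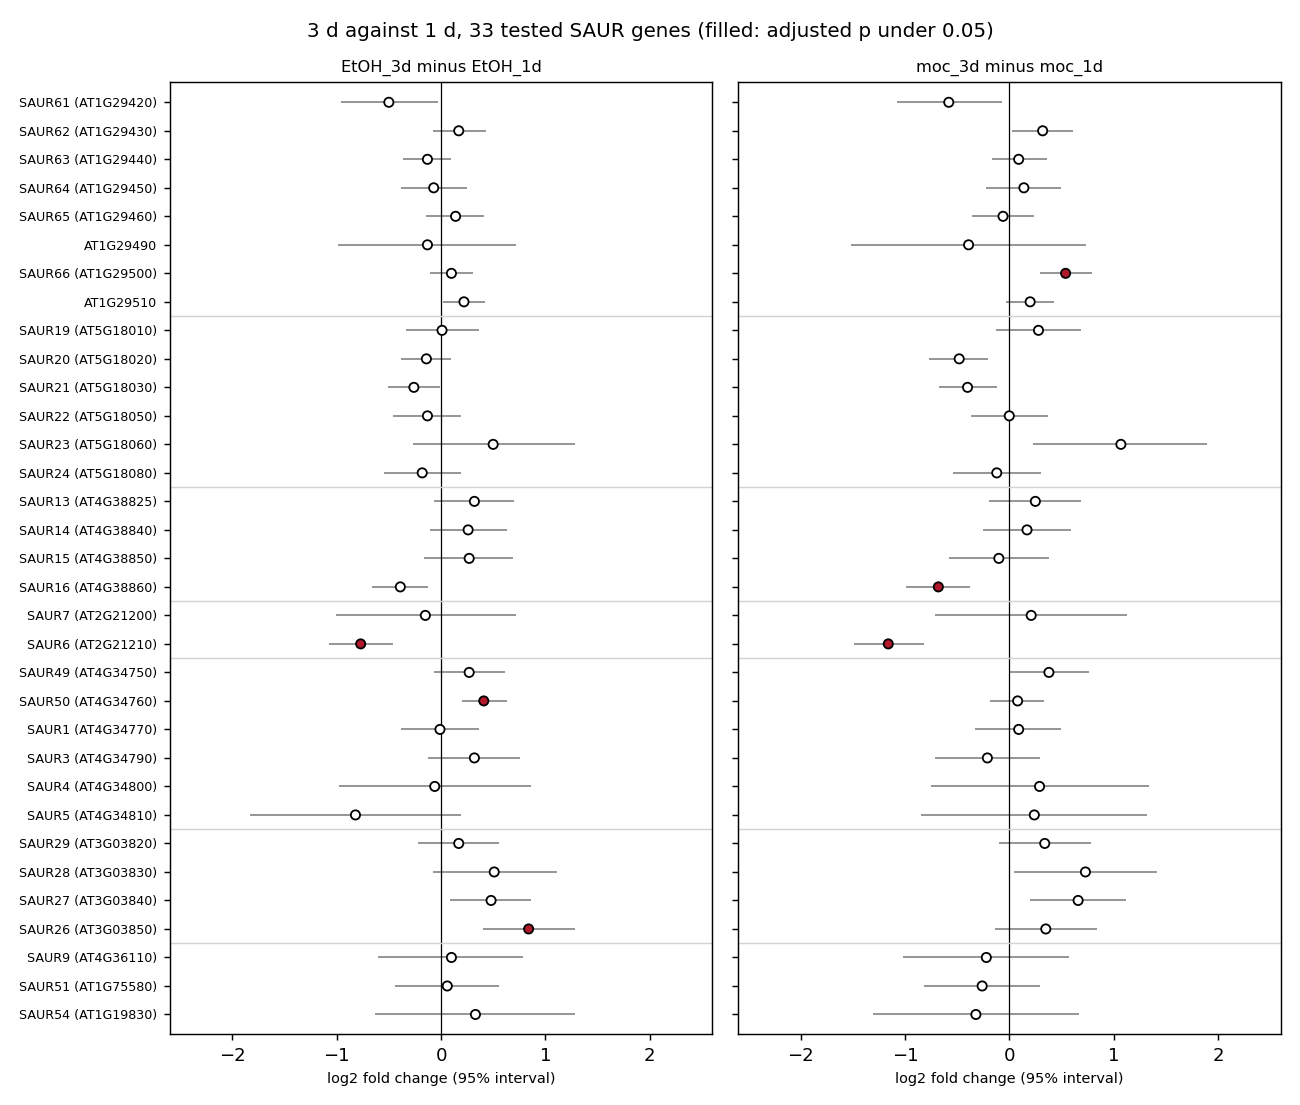
Log2 fold change of 3 d over 1 d with 95% interval (horizontal axis) for each of the 33 tested SAUR genes, ordered by cluster, in ethanol (left) and control (right) seedlings; filled points passed an adjusted p of 0.05. Filled are SAUR6 (-0.77), SAUR50 (0.41) and SAUR26 (0.84) on the left, and SAUR6 (-1.16), SAUR16 (-0.68) and SAUR66 (0.54) on the right.

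**Figure D5:**
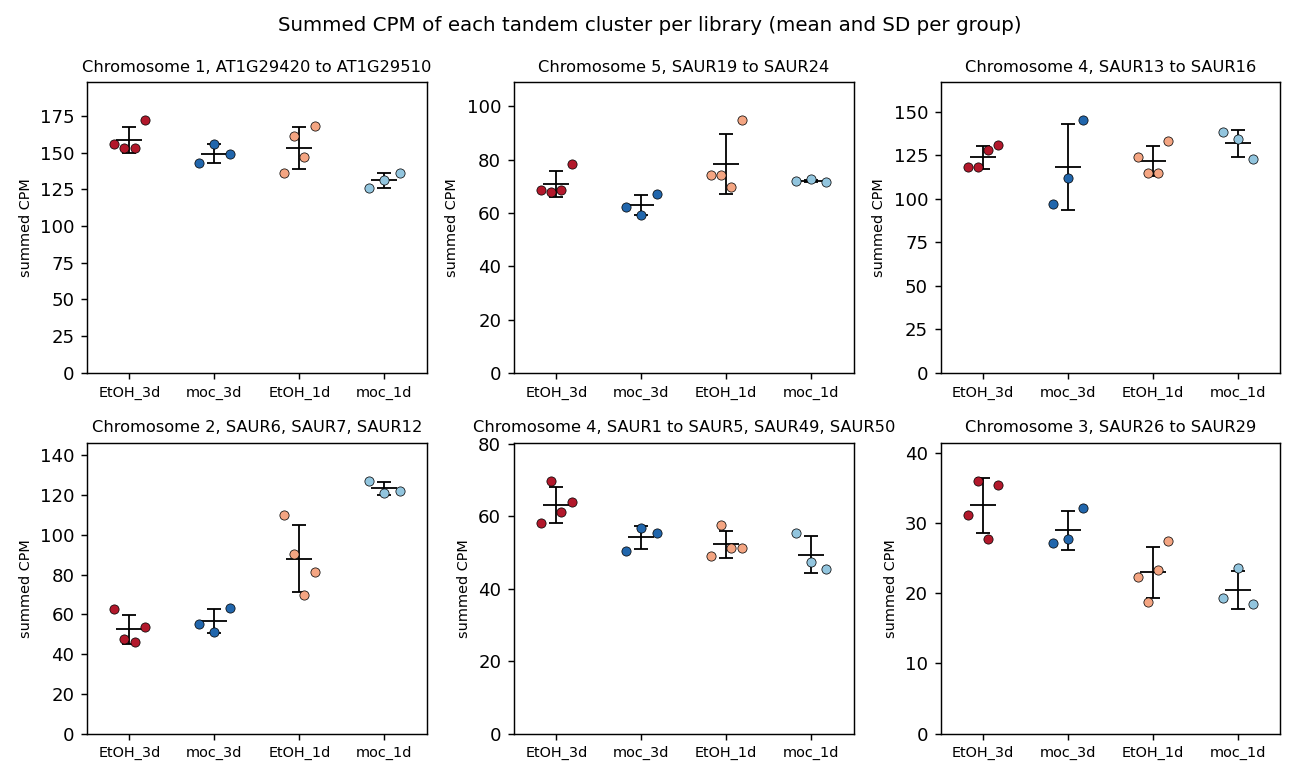
Summed CPM of each of the 6 tandem clusters per library (points) with mean and SD (bars) in EtOH_3d, moc_3d, EtOH_1d and moc_1d; axes start at 0. The SAUR6, SAUR7 and SAUR12 sum was lowest in EtOH_3d (52.5 CPM) and highest in moc_1d (123 CPM), whereas the SAUR26 to SAUR29 sum was highest in EtOH_3d (32.6 CPM).

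Sequence upstream of the genes was examined for 4 short motifs on both strands of the 250 bases before the annotated start: TGTCTC and TGTCGG, bound by ARF factors, CACGTG, the G-box, and CACATG, a variant that PIF growth factors also bind. None of these 4 words contains another. CACATG was present in 25 of the 36 windows (69.4%), against 11.1% of the 18239 tested genes with such a window. TGTCTC was present in 7 (19.4%), against 10.6%, and TGTCGG in 2 (5.56%), against 4.62%. CACGTG was found in 0 of the 36 windows, against 7.39%. Related genes share upstream sequence, so the 36 windows are not independent, and a match describes letters, not a bound site.

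The windows of the genes called between durations differ in these letters, and 4 of them are given here, 5′ to 3′ on the strand of the gene, from the RefSeq TAIR10.1 genome. They lie at chr2:9086030-9086279 (SAUR6, minus strand), chr1:10320761-10321010 (SAUR66, plus), chr4:18129987-18130236 (SAUR16, plus) and chr3:982807-983056 (SAUR26, plus). Capitals mark TGTCTC and CACATG, or CATGTG where the latter lies on the other strand.
SAUR6: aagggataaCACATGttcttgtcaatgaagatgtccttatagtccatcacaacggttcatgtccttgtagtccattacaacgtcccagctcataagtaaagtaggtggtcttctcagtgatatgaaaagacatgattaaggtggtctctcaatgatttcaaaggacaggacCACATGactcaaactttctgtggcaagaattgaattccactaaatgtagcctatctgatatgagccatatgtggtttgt
SAUR66: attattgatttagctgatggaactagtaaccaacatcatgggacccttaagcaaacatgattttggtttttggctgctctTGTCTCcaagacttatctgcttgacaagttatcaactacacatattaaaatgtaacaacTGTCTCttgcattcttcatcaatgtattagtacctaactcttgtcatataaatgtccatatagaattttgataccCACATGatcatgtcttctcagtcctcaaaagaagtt
SAUR16: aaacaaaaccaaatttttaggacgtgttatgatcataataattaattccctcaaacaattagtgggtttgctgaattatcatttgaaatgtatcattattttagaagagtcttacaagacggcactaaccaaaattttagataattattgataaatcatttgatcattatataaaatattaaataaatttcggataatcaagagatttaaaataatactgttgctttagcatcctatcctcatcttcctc
SAUR26: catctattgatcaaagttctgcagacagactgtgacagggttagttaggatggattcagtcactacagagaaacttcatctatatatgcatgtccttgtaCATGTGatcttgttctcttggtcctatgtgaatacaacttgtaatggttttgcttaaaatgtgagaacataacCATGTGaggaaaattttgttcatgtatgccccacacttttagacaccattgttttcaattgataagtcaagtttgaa
SAUR6 holds CACATG at 2 places and SAUR26 holds it at 2 places, SAUR66 holds TGTCTC at 2 places and CACATG at 1, and SAUR16 holds none of the 4 motifs. SAUR6 and SAUR26, with the same motif count, had fold changes of opposite sign in both arms. In the controls the interval of SAUR26, -0.14 to 0.84, includes 0. A link between motifs and fold changes was not tested.

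The rest of the auxin pathway was read from 9 lists with 88 genes, of which 76 were tested. In the ethanol comparisons 0 of 76 passed at 3 d and 0 of 76 at 1 d, and 0 passed in the difference of the responses by edgeR, DESeq2 or limma-voom. DESeq2 gave no adjusted p for 31, 27 and 20 of the 76. At an unadjusted p under 0.05 by edgeR there were 3, 2 and 3 genes in these comparisons, where 8.82%, 4.32% and 5.56% of all genes lay under it. Over the 9 lists, 42 of 76 genes (55.3%) had log2 fold changes above 0 at 3 d and 51 of 76 (67.1%) at 1 d, against 49.8% and 51.0% of all genes tested. Of the Aux/IAA repressors, 18 of 22 had log2 fold changes above 0 at 3 d, with a median of 0.09, and 16 of 22 at 1 d, with 0.05. At 3 d, 1 of 7 auxin response factors, 1 of 6 receptors and 1 of 5 GH3 genes lay above 0. At 1 d these lists had 3 of 7, 4 of 6 and 4 of 5 genes above 0. Of the PP2C.D phosphatases 7 of 9 lay above 0 at 3 d and 5 of 9 at 1 d. Of the growth transcription factors 6 of 9 did so at 3 d and 7 of 9 at 1 d. The 6 receptor genes lay between -0.26 and 0.06 at 3 d and between -0.04 and 0.33 at 1 d. Both proton pump genes lay between -0.07 and 0.03 across the ethanol comparisons.

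Between durations, 2 pathway genes passed. AT5G02760 (APD7), a PP2C.D phosphatase of the class that SAUR proteins inhibit, had 20.9 ± 2.83 CPM in moc_3d and 32.7 ± 2.61 CPM in moc_1d (SD, n = 3 each), a log2 fold change of -0.64 ± 0.133 (SE) with an edgeR adjusted p of 0.00471. It had 22.5 ± 4.81 CPM in EtOH_3d and 31.2 ± 3.96 CPM in EtOH_1d (SD, n = 4 each), with -0.47 ± 0.119 (SE) and an adjusted p of 0.0308. WES1 (AT4G27260, GH3.5), which conjugates auxin to amino acids, had 21.0, 16.7, 20.6 and 21.3 CPM in EtOH_3d and 14.6, 13.6, 14.7 and 13.5 CPM in EtOH_1d, a log2 fold change of 0.50 ± 0.129 (SE) with an edgeR adjusted p of 0.0331. In all, 1 of 76 pathway genes was higher and 1 lower in the ethanol arm, and 0 higher and 1 lower in the control arm, where 1.0% (ethanol arm) and 0.842% (control arm) of all genes passed in either direction.

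The reference annotates 42 further SAUR loci, of which 20 were tested. By edgeR, DESeq2 and limma-voom 0 passed in the ethanol comparisons and in the difference of the responses, DESeq2 giving no adjusted p for 17 of the 20 at 3 d, 15 at 1 d and 14 in the difference. At an unadjusted edgeR p under 0.05 there were 3, 0 and 1, against 8.82%, 4.32% and 5.56% of all genes. Their median log2 fold change was 0.21 at 3 d and -0.07 at 1 d. SAUR56 (AT1G76190) was lower in moc_3d, at 0.183, 0.692 and 0.776 CPM, than in moc_1d, at 3.24, 2.37 and 1.48 CPM, with a log2 fold change of -2.05 ± 0.505 (SE) and an edgeR adjusted p of 0.0286. It was called by DESeq2 but not by limma-voom.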

How the data were processed

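Libraries were made from total RNA of whole seedlings by Lasy-Seq, per the labels' protocols. Per the submitters' processing notes, HISAT2 and featureCounts were used with the build TAIR10, beside bcl2fastq, Trimmomatic and DESeq2, without versions. Strand settings and the handling of reads with several matches are not given in the sources used here. Per gene, the authors deposited whole-number read counts, which carry no normalization. A second deposited table, of normalized values, was not used.

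The identical columns moc_1d replicate 1 and moc_3d replicate 3 were left out, leaving 14 libraries with 3695511 to 15943927 counts. The main test was that of edgeR 4.0.16 under R 4.3.3 (filterByExpr by group, TMM, robust quasi-likelihood fit of the 4 groups together, two-sided). P-values were adjusted by Benjamini-Hochberg over 18419 genes in each of 5 comparisons, with a threshold of 0.05. CPM are counts on TMM-scaled totals of 1000000. Standard errors were derived from the test statistic. Alternatives used DESeq2 1.42.0 and limma 3.58.1 (voom), other scalings, filters and libraries, and left out each library in turn.

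Symbols, coordinates and sequences come from RefSeq TAIR10.1, where 26719 of 27416 locus codes matched. Shared runs were found by exact words of 50 nt over whole transcripts. The last 500 nt of the transcripts of the 36 genes were also searched with BLAST 2.17.0, with the result given above. The members and lists were chosen with earlier results of these data known. Genes are named where they passed in any comparison, where they were among the 3 highest or 3 lowest fold changes of a comparison, or where they took the most counts of a cluster. Other genes named (such as SAUR19 and SAUR63) follow from counts of 5 or fewer and were chosen after their values were seen.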

Additional observations from a re-analysis of the deposited data

Results flagged for a closer look

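Within groups of 4 libraries, 1 library stood away from the other 3 by more than Dixon's 95% limit in 3 of 66 checks, where chance gives about 1 in 20. SAUR20 had 26.7 CPM in EtOH_1d replicate 4 and 20.9, 21.2 and 21.5 CPM in the other libraries of EtOH_1d. SAUR14 had 81.2 CPM in EtOH_3d replicate 4 and 62.1, 62.1 and 64.3 CPM in the others of EtOH_3d. SAUR13 had 12.1 CPM in EtOH_3d replicate 2 and 8.51, 8.56 and 8.82 CPM in the others, and its locus overlaps AT4G38820 by 433 nt on the opposite strand. The part of depth or strand in these values was not tested.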

How the results depend on the processing

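No called result changed direction under the 24 alternative settings, DESeq2 giving no adjusted p for SAUR26 in EtOH_3d against EtOH_1d. Mean sums per tandem cluster gave smaller log2 ratios in the controls for the clusters of SAUR66 (0.19) and SAUR16 (-0.16) than for these genes. For the SAUR6 cluster the ratios were -1.12 in the controls and -0.75 in the ethanol arm. In the ethanol arm they were 0.50 for the SAUR26 cluster and 0.27 for that of SAUR50. The number of SAUR genes called for EtOH_1d against moc_1d, 0 by edgeR, was 2 with DESeq2, 1 in a fit of the 2 groups alone, 2 without the low-count filter and 2 with the replicate block. These were SAUR66 (adjusted p 0.0356, 0.0322, 0.00251 and 0.0104) and, where 2 passed, SAUR6. Same-numbered libraries did not deviate together (18 pairs, correlations of -0.0795 to 0.0593), so the numbers are not read as pairs. With all 16 columns, or with the identical library kept as moc_1d replicate 1, the count was 0 in both duration comparisons, against 3 in each without it, and all 6 calls between durations were lost. With it kept as moc_3d replicate 3, all 6 held. Leaving out 1 library at a time gave 0 to 2 calls for ethanol at 1 d, 0 to 1 at 3 d, 0 to 3 for EtOH_3d against EtOH_1d, 1 to 3 for moc_3d against moc_1d, and 0 to 0 for the difference of the responses. The medians ran from 0.041 to 0.117, 0.0367 to 0.192, 0.043 to 0.154, 0.0157 to 0.132 and -0.0486 to 0.054 in the same order, the last taking either sign. The 0.192 was found without moc_3d replicate 4. The cause was not tested. SAUR6 passed in moc_3d against moc_1d in 22 of 24 settings, and in EtOH_3d against EtOH_1d in 18. Depth limits the genes of few counts: SAUR54, at 1.23 CPM, had an interval from -1.52 to 0.28 for ethanol at 1 d.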
